A study of Homo sapiens with 96 samples.

Results

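To determine how cultures given compounds in dimethyl sulfoxide (DMSO) differed from cultures given compounds in plain medium, 39 of the 96 libraries of the study were compared. The members were chosen by label: the 23 libraries of the 3 groups Chlorpyrifos_IC20_100, Fluoxetine_IC20_100 and MeHg_IC20_100, and the 16 libraries of the 2 groups Acrylamide_IC20_100 and Valproic_acid_IC20_100. Each group held 8 libraries, and 1 of them, methyl mercury replicate 8, was left out of the rule. In that library the 50 most abundant genes took 17.4% of the normalized counts, against 11.8% to 12.9% in the 39.

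The 39 libraries, the controls and the IC5 libraries came from co-cultures of neurons and astrocytes, differentiated for 10 days from neural progenitor cells of the established human embryonic stem cell line H9. The study exposed such cultures to 5 developmental neurotoxicants at levels labelled IC5 and IC20/100, beside unexposed controls, and sequenced polyadenylated RNA in 6 runs. The label IC20/100 was read as the level for 20% inhibition diluted 100-fold, and IC5 as the undiluted level for 5% inhibition. On this reading IC20/100 is not to be taken as the stronger exposure. Chlorpyrifos (an organophosphate insecticide), fluoxetine hydrochloride (a serotonin reuptake inhibitor) and methyl mercury chloride (an organic mercury compound) were dissolved in DMSO, with 0.25% DMSO by volume in the final medium. Acrylamide (an industrial and food-borne chemical) and valproic acid sodium (an anticonvulsant and histone deacetylase inhibitor) were dissolved in medium. All groups shared a differentiation medium with N2 and B-27 supplements, glial and brain-derived neurotrophic factors, dibutyryl cyclic adenosine monophosphate and ascorbic acid. No source used here says whether the 8 control cultures held DMSO, how long the exposure lasted or what the molar doses were.

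Every compound had only 1 vehicle, so vehicle and compound cannot be told apart in any value below. The 8 libraries of a group were technical replicates of 1 experiment, and p-values therefore measure only the spread between such libraries. With compounds as the units, 3 against 2 groups give 10 orderings, and the smallest p that an exact permutation test could reach is 0.1. Recovered reads ranged from 9.49 to 24.3 Mreads (megareads) per library, with a median of 17.9 Mreads, and every run held libraries of all 5 groups. Mitochondrially encoded transcripts took 2.62% ± 0.115 (SD, n = 23) of normalized counts in the DMSO libraries and 2.54% ± 0.186 (SD, n = 16) in the medium libraries. The neuronal markers DCX and MAP2 were abundant in all 39 libraries, with lowest values of 24539.9 and 15915 normalized counts. The astrocyte marker GFAP was low, with medians of 17.1 in the DMSO and 18.4 in the medium libraries.

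Many of the genes described below belong to the integrated stress response, in which stress kinases slow general translation while the transcription factor ATF4 is made. ATF4, with partners of the C/EBP family, then switches on genes for amino acid synthesis and import, tRNA charging and cell death control. A second set are targets of p53, the transcription factor that couples DNA damage and other stresses to arrest and apoptosis. Several of the ATF4 targets carry, in the promoter, a composite element that binds ATF4 together with a C/EBP protein.

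To show that element in genes that moved together, promoters of the RefSeq table (build GRCh38.p14, 250 bases before to 50 bases after each start) were searched for TGATGNAA on both strands. The opposite strand reads TTNCATCA, and the search counted promoters, whether or not matches overlapped. It was found in 3.62% of all 35116 promoters and in 2.11% of the 19093 promoters of tested genes. Of the 287 genes lower with DMSO compounds in every pair of groups (defined below), 199 had an entry, and 5.83% of their 309 promoters held it, against 1.08% of the 93 promoters of the 68 matched genes that were higher. Among members of the 4 lists for the ATF4 program, amino acid synthesis, transporters and tRNA synthetases that were lower in every pair, 28 of 36 had an entry, and 11 of these 28 held the element, against 4.46% of all genes in the table and 2.87% of tested genes. Of all tested members of these lists, lower or not, 64 had an entry and 18 of these (28.1%) held the element. Of the 18 promoters with the element among the 287 lower genes, 13 belonged to list members. These lists were drawn up from known ATF4 biology, so these shares describe the lists and not the lower genes in general. For some, but not all, of the genes with the element, the stretch upstream of the start is printed below. It runs 5′ to 3′ on the strand of the gene, with the element in capitals:
ASNS (chr7:97872453-97872492, minus strand): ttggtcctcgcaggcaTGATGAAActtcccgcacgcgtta
CEBPG (chr19:33374055-33374094, plus strand): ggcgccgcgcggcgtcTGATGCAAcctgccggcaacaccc
JDP2 (chr14:75427990-75428021, plus strand): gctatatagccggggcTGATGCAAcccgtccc
MTHFD1L (chr6:150866341-150866380, plus strand): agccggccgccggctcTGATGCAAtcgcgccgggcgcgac
ATF3 (chr1:212565200-212565239, plus strand): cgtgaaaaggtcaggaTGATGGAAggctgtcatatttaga
CHAC1 (chr15:40953246-40953285, plus strand): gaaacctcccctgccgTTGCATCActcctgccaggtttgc
AARS1 (chr16:70289670-70289709, minus strand): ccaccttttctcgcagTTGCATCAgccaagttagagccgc
GARS1 (chr7:30594829-30594868, plus strand): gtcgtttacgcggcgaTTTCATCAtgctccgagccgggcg
CHAC1, AARS1 and GARS1 carry it on the opposite strand. Among the printed stretches, the distance from the start to the first base of the element ran from 16 bases in JDP2 (-16) to 209 bases in CHAC1 (-209). A match describes these letters only and does not show binding.

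Across 20118 genes tested, 2022 were higher (10.1%) and 2141 lower (10.6%) with the DMSO compounds than with the medium compounds, weighting each group equally and with run as a term (limma, Benjamini-Hochberg adjusted p under 0.05). Differences are given as log2 of the normalized count plus 2, which understates changes of low genes. Most differences were small: 61 genes were at least 1.5-fold higher (0.303%) and 262 at least 1.5-fold lower (1.3%). The median difference over all genes was 0.00574. Differences of at least 1.5-fold were thus more often falls than rises.

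The contrast averages groups, so it was also asked which genes differed between each DMSO group and each medium group. Calls numbered 3142 (15.6% of genes tested) for chlorpyrifos against acrylamide, 3516 (17.5%) for fluoxetine and 2294 (11.4%) for methyl mercury. Against valproic acid the same 3 groups gave 1208 (6%), 1180 (5.87%) and 849 (4.22%). The pairs share libraries and are therefore set side by side, not compared. In all 6 pairs at once, 99 genes were higher (0.492%) and 287 lower (1.43%), and of these 386 genes 349 code for protein. Of the 4163 genes called in the average, 3776 (90.7%) had the same sign in all 6 pairs, whereas 582 were called in none of them. Without the acrylamide group 1693 genes were called in place of 4163. Counts of list members at IC20/100 below stand beside 10.6% of all genes lower and 10.1% higher in the average. In all 6 pairs those shares are 1.43% and 0.492%.

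**Figure D1:**
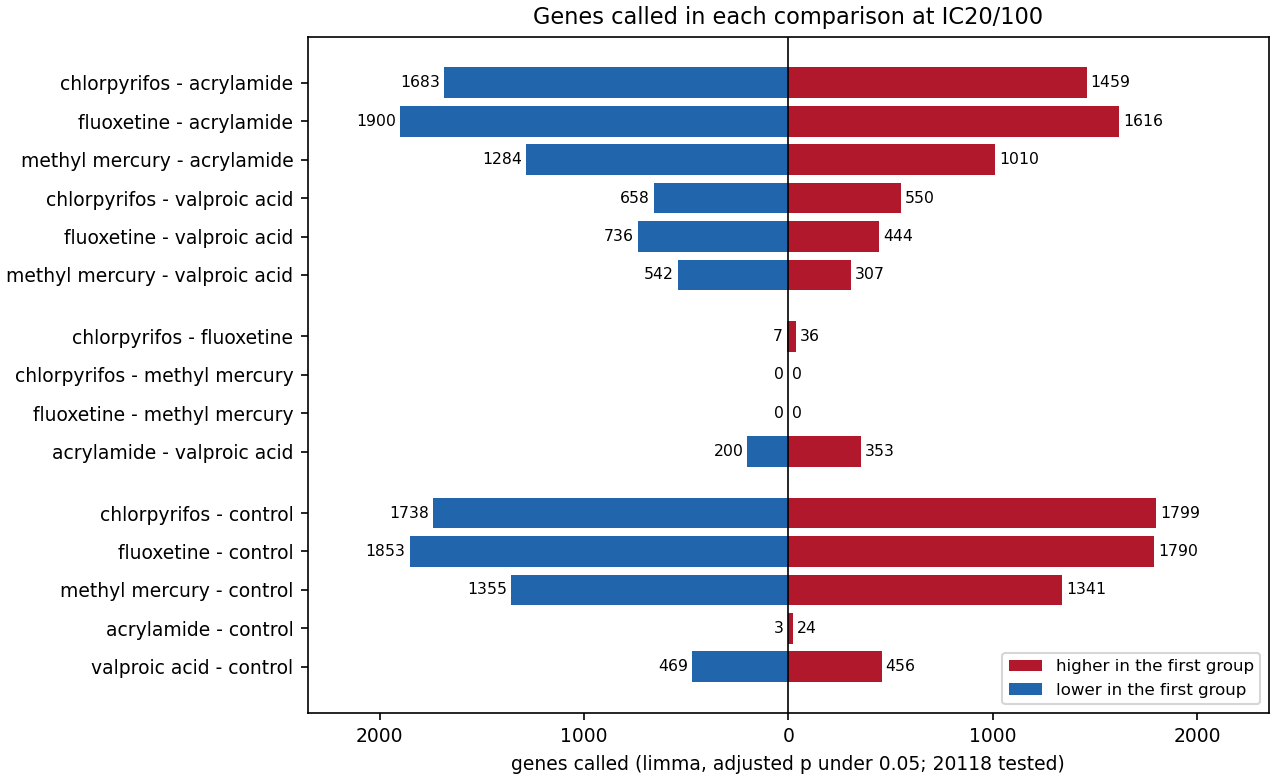
Genes called higher (right) or lower (left) in the first-named group of each comparison at IC20/100, as numbers of genes of 20118 tested (limma, adjusted p under 0.05). The 6 pairs across vehicles hold 849 to 3516 calls, the 3 pairs of DMSO groups 0 to 43, and the pair of medium groups 553.

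Among transcription factors of the ATF4 program, ATF5, CEBPB, DDIT3, ATF3 and ATF4 itself fell. ATF5, a factor close to ATF4, had 300, 374 and 525 normalized counts (lowest, median, highest) in the 23 DMSO libraries. In the acrylamide libraries it had 1058, 1263 and 1714, in the valproic acid libraries 666, 987 and 1182, and in the controls 1059, 1321 and 1665. The DMSO libraries lay below every medium and control library, with valproic acid between. The difference was -1.57 (SE 0.0633, 2.97-fold lower, limma adjusted p 8.76e-34), with the same direction in 6 of 6 runs.

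CEBPB, a C/EBP factor and partner of ATF4, ranged from 18.4 to 41.0 in the DMSO libraries (median 28.1) and from 57.5 to 172 in the medium libraries (median 92.2). These ranges did not overlap, and the difference was -1.67 (SE 0.0833, adjusted p 1.94e-28, limma). DDIT3, which encodes the pro-apoptotic factor CHOP, fell by 1.13 (log2), from a median of 454 in the medium libraries to 202 in the DMSO libraries, again without overlap. ATF3, a stress-induced repressor, fell by 0.91, and its ranges did overlap (166 to 328 against 233 to 830). ATF4, which is regulated mostly at translation, was the least changed of the 5, at -0.24 (SE 0.0214), with 3898 to 4847 in the DMSO and 4491 to 5942 in the medium libraries.

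Effectors downstream of these factors moved further than ATF4. CHAC1, which degrades glutathione, had 80.4, 95.97 and 147 normalized counts in the DMSO libraries and 183, 298 and 509 in the medium libraries, a difference of -1.54 (SE 0.0696). TRIB3, a pseudokinase that restrains ATF4 and AKT signalling, had a difference of -1.51, and the secreted peptide ADM2 one of -1.44. Both overlapped at the edge: the lowest medium library had 167 for TRIB3 against a highest DMSO library of 195, and 37.0 for ADM2 against 37.2. SESN2, an inhibitor of mTORC1 that both ATF4 and p53 control, went from a medium median of 1278 to a DMSO median of 689, and no library overlapped.

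In the list of 23 tested ATF4 and CHOP genes, 17 were lower and 0 higher, against 10.6% and 10.1% of all genes, and 13 were lower in all 6 pairs. The median of the list was -0.54, against 0.00574 over all genes. The other 6 members had no call: NIBAN1, CREBRF, VLDLR, NUPR1, KLHL24 and SQSTM1, with values from -0.54 to 0.08. Neither medium group stood where the other did. Relative to controls the list's median was -0.03 with acrylamide and -0.41 with valproic acid, and -0.77, -0.68 and -0.94 with chlorpyrifos, fluoxetine and methyl mercury.

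**Figure D2:**
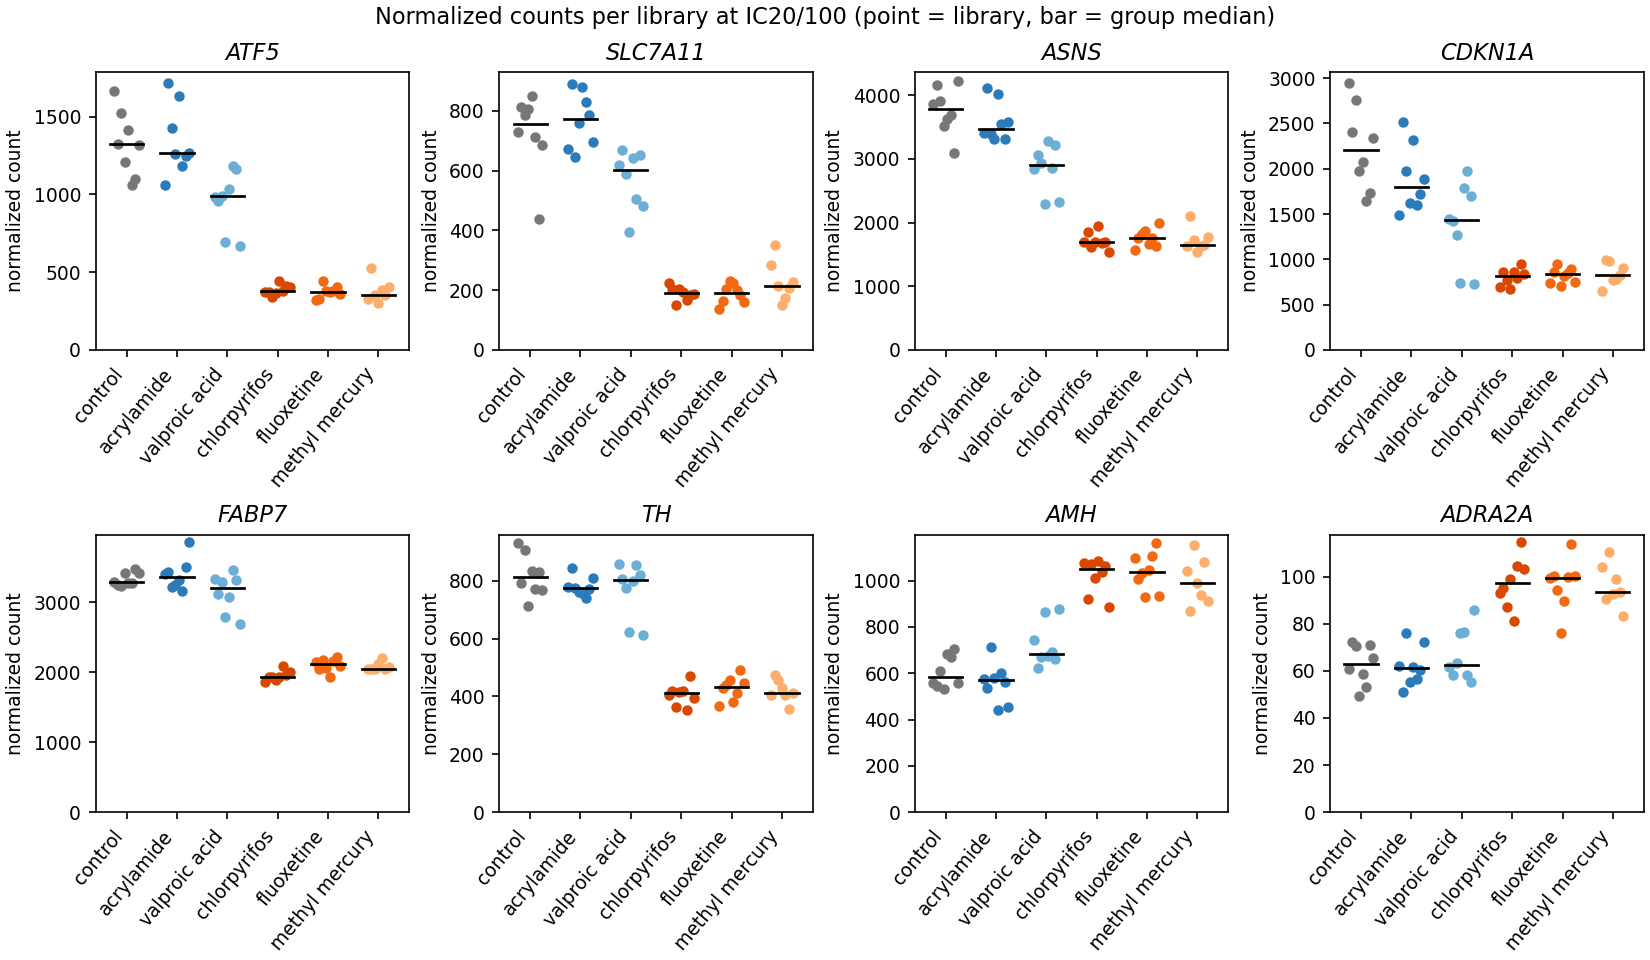
Normalized counts (vertical axes, starting at 0) of 8 genes in each library of the controls, the 2 medium groups and the 3 DMSO groups, with points for libraries and bars for group medians. ATF5, SLC7A11, ASNS, FABP7 and TH show all DMSO libraries below all medium libraries. For CDKN1A valproic acid libraries reach into the DMSO range, with the lowest below the DMSO median. ADRA2A overlaps at the edge, and AMH is higher with DMSO compounds with a narrow overlap.

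Most enzymes on the list for making serine, glycine, one-carbon units and asparagine fell, 12 of 18 tested. PCK2, a mitochondrial enzyme that feeds this route from pyruvate, had 89.0, 134 and 212 normalized counts in the DMSO libraries and 220, 425 and 719 in the medium libraries, a difference of -1.56 (SE 0.105). ASNS, asparagine synthetase, had 1539, 1699.7 and 2111 against 2295, 3299 and 4108, a difference of -0.88 (SE 0.0423). Neither gene overlapped between the vehicles, and for both the lowest medium library was from the valproic acid group. SHMT2 and MTHFD2, the mitochondrial serine and folate enzymes, were each 1.8-fold lower without overlap. ALDH1L2, which oxidizes the folate carrier in mitochondria, had a difference of -0.97 and overlapped, with 325 in its lowest medium library and 494 in its highest DMSO library.

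Of the same 18 genes 2 were higher in the average, but 0 were higher in all 6 pairs. In all 6 pairs 11 were lower, and the median of the list was -0.56. TYMS, which makes thymidylate and is also on the S phase list, was among those that rose (0.11, limma adjusted p 0.0367). CBS, which starts the conversion of homocysteine to cysteine, had 539 to 863 in the DMSO libraries and 1047 to 1458 in the medium libraries. Its difference was -0.80 (SE 0.0457), with both medium groups near the controls: valproic acid minus controls was -0.04 and acrylamide minus controls 0.07.

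Amino acid transporters showed fewer changes but some of the largest. SLC7A11, the cystine importer that supplies glutathione synthesis, had 137, 200 and 350 normalized counts in the DMSO libraries, 647, 773 and 892 with acrylamide and 395, 603 and 671 with valproic acid. It differed by -1.70 (SE 0.0803, 3.24-fold lower, limma adjusted p 7.68e-30), and no DMSO library reached a medium library. SLC7A5, which carries large neutral amino acids, had a difference of -1.22, and its DMSO range of 1246 to 1992 reached into the medium range of 1789 to 5275. SLC6A9, a glycine transporter, differed by -0.95, with 153 to 331 against 280 to 485. Of 16 tested transporters 7 were lower, 0 higher and 6 lower in all 6 pairs (median -0.20).

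Aminoacyl-tRNA synthetases, which charge tRNAs with amino acids, fell by less. Of 21 tested, 14 were lower and 1 higher, 6 of them lower in all 6 pairs, and the median was -0.18. AARS1 (alanine) differed by -0.56, from a medium median of 4169 to a DMSO median of 2826. YARS1 (tyrosine) differed by -0.52, and its DMSO libraries (2261 to 2635) did not reach the medium libraries (2650 to 3986). Genes of the endoplasmic reticulum branch of the stress response had a median of -0.04. Of these 24 genes 5 were lower and 1 higher, against 10.6% and 10.1% of all genes. Within it HERPUD1, a component of protein degradation at the reticulum, differed by -0.61 and XBP1, the factor of that branch, by -0.39 (from a median of 1192 to 912).

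Targets of p53 were lower in 19 of 28 tested genes and higher in 0, with 11 lower in all 6 pairs and a median of -0.32. CDKN1A, which encodes the cell cycle inhibitor p21, had 648, 832 and 989.6 normalized counts in the DMSO libraries. With acrylamide it had 1490 to 2511 and with valproic acid 725 to 1969, so only valproic acid libraries came down into the DMSO range. The difference was -0.94 (SE 0.0832, limma adjusted p 2.01e-15). GDF15, a secreted stress factor on both the ATF4 and p53 lists, had the largest fall of these genes (-2.08, SE 0.314) but varied from 19.5 to 281 in the DMSO libraries and from 39.03 to 522 in the medium libraries, and it was not called in every pair. MDM2, PPM1D and TP53INP1 were among the 9 p53 targets that did not pass, at -0.18, -0.02 and 0.03.

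**Figure D3:**
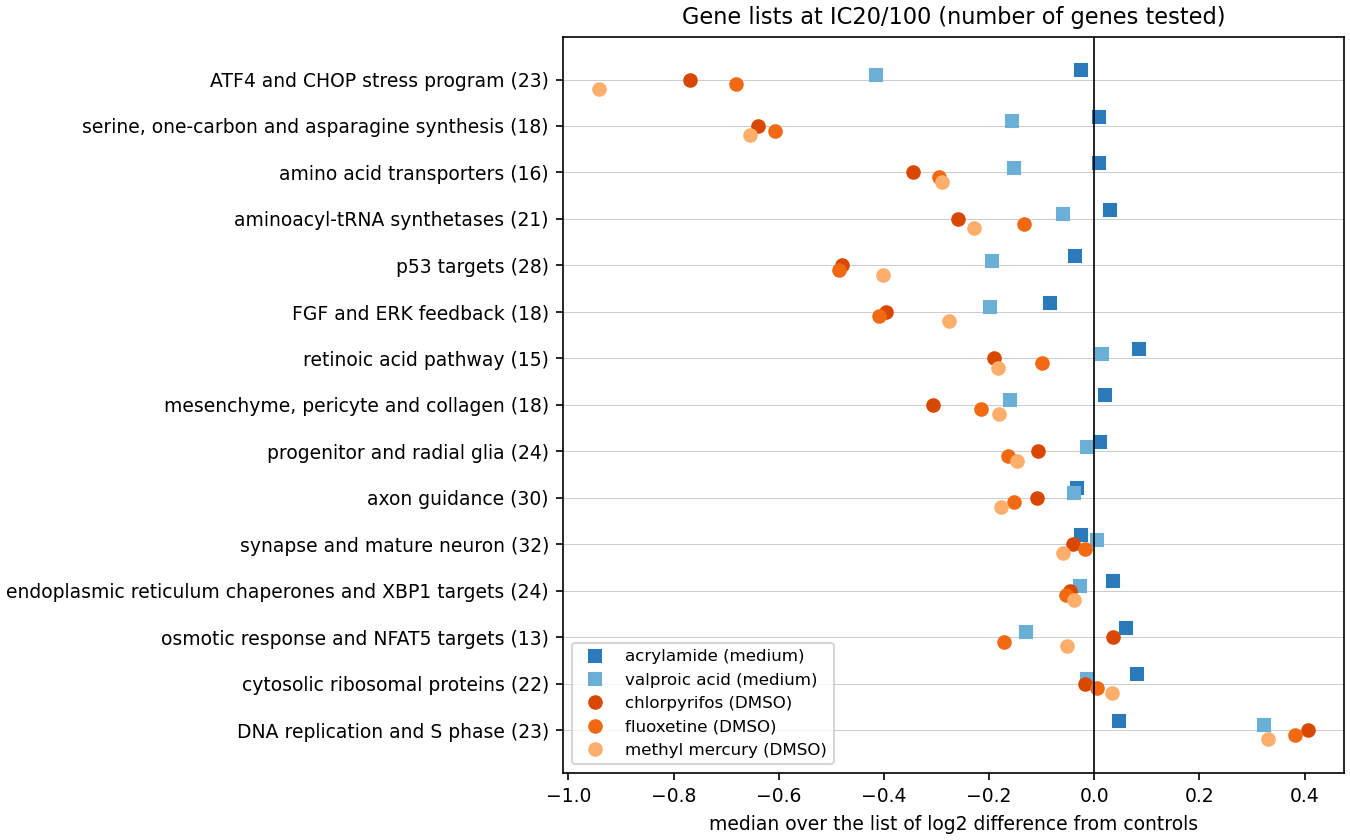
Median, over the tested genes of 15 lists, of the log2 difference from the 8 controls (horizontal axis) for each group at IC20/100, with squares for medium compounds and circles for DMSO compounds. The 3 DMSO groups lie together on the left in the first 5 lists, acrylamide lies near 0, and valproic acid lies between, whereas in the S phase list valproic acid lies beside the DMSO groups.

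Genes of neural progenitors and of patterning also differed. FABP7, which binds fatty acids in radial glia, had 1864, 2045 and 2212 normalized counts in the DMSO libraries and 2691, 3304 and 3866 in the medium libraries (difference -0.67, SE 0.0265, limma adjusted p 2.12e-34). LIN28A, which binds RNA in early progenitors, had 86.6, 101 and 119 against 163, 195 and 266 (difference -0.95). Neither overlapped between vehicles. For these genes valproic acid minus controls was -0.08 and 0.06, so that both medium groups lay near the controls, unlike in the ATF4 list. PAX6, a progenitor transcription factor, differed by -0.47 with overlapping libraries. Over the progenitor and radial glia list 10 of 24 were lower and 2 higher (median -0.11).

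CRABP2, which carries retinoic acid to its receptor, had 205, 272 and 352 normalized counts with DMSO compounds and 451, 578 and 739 with medium compounds, without overlap (difference -1.10, SE 0.0479). CYP26B1, which breaks retinoic acid down, differed by -0.71, and its ranges overlapped widely (315 to 769 against 459 to 1301). In the retinoic acid list 7 of 15 were lower and 2 higher (median -0.31). EPHA2, an ephrin receptor placed on the FGF and ERK feedback list, differed by -0.98, and 11 of 18 genes of that list were lower and 0 higher (median -0.16). WNT7A, a WNT ligand, differed by -0.50, and 7 of 23 WNT pathway genes were lower and 1 higher. UNC5B, a netrin receptor, differed by -1.30, with 12 of 30 axon guidance genes lower and 2 higher.

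Among neuronal genes, TH, the rate-limiting enzyme of dopamine synthesis, had 354, 416 and 491 normalized counts in the DMSO libraries and 612, 777 and 858 in the medium libraries (difference -0.89, SE 0.0503). The proneural factor NHLH1 differed by -0.34, the neurofilament gene NEFL by -0.34 and the kainate receptor gene GRIK1 by -0.37, and in all 3 no DMSO library reached a medium library. Over the list of synapse and mature neuron genes 9 of 32 were lower and 5 higher, against 10.6% and 10.1% of all genes. Calls thus went both ways, and the median of the list was -0.01.

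The remaining leading falls were of genes outside these lists. SPX, which encodes the peptide spexin, had 1.95, 10.6 and 33.7 normalized counts in the DMSO libraries and 38.9, 55.1 and 103 in the medium libraries, the largest fall among protein-coding genes called in all pairs with a mean of at least 20 (-2.08, SE 0.147). At these levels counting error is large in single libraries, yet no DMSO library reached a medium library. CDC42EP1, an effector of the small GTPase CDC42, differed by -1.37, with overlap at the edge.

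Rises were fewer. AMH, the anti-Müllerian hormone, had 867, 1036 and 1163 normalized counts in the DMSO libraries, 441, 571 and 712 with acrylamide and 622, 683 and 876 with valproic acid. Its difference was 0.68 (SE 0.047, limma adjusted p 1.17e-20), and only the highest valproic acid library reached the lowest DMSO library. DBH, which turns dopamine into noradrenaline, rose 1.95-fold at a low level, from a medium median of 13.6 to a DMSO median of 26.7, with overlap. ADRA2A, a noradrenaline receptor, rose by 0.57, from a median of 61.6 to 98.9. In the serotonin and monoamine list 5 of 16 were higher and 1, TH, was lower.

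The proneural factors NEUROG1 (0.59) and NEUROG2 (0.37) rose, as did the transcription factors TFAP2C (0.87) and KLF9 (0.59), the apelin receptor APLNR (0.76) and INSYN2B (0.73). NEUROG2 had 244 to 311 in the DMSO libraries and 179 to 268 in the medium libraries. All of these overlapped between vehicles, and all were called higher in each of the 6 pairs. Of 20118 genes, 7 were higher (0.0348%) and 63 lower (0.313%) without any overlap of the 23 and 16 libraries.

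Genes of DNA replication rose on average, but not against both medium groups. Of 23 tested S phase genes 12 were higher and 0 lower (median 0.15), and 0 were higher in all 6 pairs. MCM3, a subunit of the replicative helicase, had medians of 1274 with acrylamide, 1481 with valproic acid, and 1715, 1721 and 1648 with chlorpyrifos, fluoxetine and methyl mercury. Its difference of 0.25 (adjusted p 2.97e-08, limma) was 0.12 without the acrylamide group, with an adjusted p of 0.0924. MKI67, a proliferation marker, did not differ past the threshold (0.07, adjusted p 0.221). The progenitor genes NES and SOX2 differed by 0.06 and -0.20, DCX by 0.01 (adjusted p 0.76), MAP2 by -0.05, GFAP by 0.02 (SE 0.298) and the glial gene S100B by -0.09 (adjusted p 0.616).

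The 4 lists drawn up for properties of the solvent, which holds sulfur and acts on water balance, are read against 10.6% of all genes lower and 10.1% higher. For osmotic response genes 1 of 13 was lower and 0 higher, for sulfur metabolism 4 of 17 lower and 3 higher, and for DNA methylation enzymes 2 of 14 lower and 2 higher. For xenobiotic response genes 1 of 15 was lower and 1 higher. Their medians lay between -0.04 and 0.00159. CBS was the largest change among the sulfur genes.

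Summed normalized counts of some cell type markers also differed between DMSO and medium libraries, and their part in the gene differences was not tested. The 32 synapse and mature neuron markers overlapped widely (104272 to 112294 with DMSO compounds, 107643 to 116250 with medium compounds). So did the 20 astrocyte markers (19969 to 22635 against 20047 to 24236). The 24 progenitor and radial glia markers summed to between 103029 and 117756 in the DMSO libraries and between 115686 and 128766 in the medium libraries. The 12 oligodendrocyte lineage markers ranged from 8032 to 9591 against 10406 to 12174, and the 12 neural crest markers from 24762 to 27361 against 27016 to 30377. Of their tested members 4 of 9 and 5 of 12 were lower, and 1 in each list was higher. The medium medians of these 2 sums (11171 and 29071) also lay below the control medians (12503 and 30293). Mesenchymal and collagen genes ranged from 12684 to 15670 against 14830 to 17598, with 9 of 18 lower and 0 higher, among them ACTA2, smooth muscle actin (-0.68). Microglial markers were near 0, with 1 of 11 testable, and 3 of the 11 were listed at 0 in every DMSO library. The 10 endothelial markers summed to at most 260 in the DMSO and 317 in the medium libraries. In these bulk samples fewer cells of a type and less RNA per cell cannot be told apart.

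To see whether the DMSO groups differed among themselves, the same model compared them in pairs. Chlorpyrifos differed from fluoxetine in 43 genes (0.214%), of which 36 were higher and 7 lower. Chlorpyrifos and fluoxetine each gave 0 calls against methyl mercury with limma, with 1307 and 1342 genes at an unadjusted p under 0.05. On recovered reads edgeR called 8 and 4 genes and DESeq2 34 and 20 for the same pairs. Over the 3 pairs together, 11 genes were called without fluoxetine replicate 4 and 25 without chlorpyrifos replicate 7, in place of 43. PCSK1N, a secreted inhibitor of prohormone processing chosen as the gene with the lowest adjusted p after values were seen, was 0.50 higher with chlorpyrifos than with fluoxetine (limma adjusted p 1.01e-06).

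These small counts do not show that the compounds acted alike. Among 16285 genes with a mean of at least 20 normalized counts, the 95% interval of the difference lay within 1.5-fold either way for 85.1% (chlorpyrifos against fluoxetine), 84.6% (chlorpyrifos against methyl mercury) and 84.3% (fluoxetine against methyl mercury). Over all genes tested the median absolute difference was 0.0821, 0.0786 and 0.08 between DMSO groups, against 0.103 to 0.139 between a DMSO and a medium group. Between the 2 medium groups it was 0.099, close to the 0.103 to 0.105 between a DMSO group and valproic acid. For ATF5 the DMSO groups differed by 0.05, 0.04 and -0.01.

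The 2 medium groups differed from each other in 553 genes (2.75%), 353 higher and 200 lower with acrylamide. Without valproic acid replicate 8, the library farthest from its group, 318 genes were called. ATF5 was 0.51 higher with acrylamide than with valproic acid (adjusted p 5.77e-04, limma), ASNS 0.35 and CDKN1A 0.53 higher, whereas TH differed by 0.04 (adjusted p 0.87) and FABP7 by 0.11 (adjusted p 0.124). AMH was 0.39 lower with acrylamide (-0.386).

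Set beside the unexposed controls, chlorpyrifos gave 3537 calls (17.6%), fluoxetine 3643 (18.1%) and methyl mercury 2696 (13.4%), while valproic acid gave 925 (4.6%) and acrylamide 27 (0.134%). The 2 medium groups gave 952 calls together, and 533 without valproic acid replicate 8. These comparisons share the 8 control libraries, and the 386 genes were chosen on the same exposed libraries, so their values here are a description. The 287 genes lower in all pairs had medians of -0.44, -0.45 and -0.46 relative to controls with chlorpyrifos, fluoxetine and methyl mercury, 0.01 with acrylamide and -0.07 with valproic acid. The 99 higher genes had medians of 0.33, 0.30, 0.29, -0.01 and 0.06 in the same order. Of the 386 genes 349 were called the same way in each DMSO group against controls. Called against controls in either direction were 1 with acrylamide and 93 with valproic acid. The choice of the 386 on these DMSO libraries favours the count of 349, for which no share over all genes is given.

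Whether the difference between DMSO and medium compounds was also present at the other exposure level was asked with the IC5 libraries, which share none with the 39. There 3719 genes were higher (18.5%) and 3712 lower (18.5%) with DMSO than with medium compounds. Of the 386 genes, 226 were called the same way at IC5 and 75 the other way: 39 and 27 of the 99 higher genes, and 187 and 48 of the 287 lower ones. Called one way in all 6 pairs at IC5 were 601 genes (2.99%), and 65 of the 386 were among them with the same direction as at IC20/100. The 2 contrasts themselves differed in 6305 genes (31.3%).

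The ATF4 list had opposite counts at the 2 levels. At IC5, 16 of 23 genes were higher and 1 lower with DMSO compounds, with a median of 0.30 (background 18.5% each way), against 17 lower and 0 higher at IC20/100. Of the 23, 13 were lower at IC20/100 and higher at IC5, a count for which no share of all genes is given. For 19 the contrast was lower at IC20/100 than at IC5 by its own test, against 15.7% of all genes. Both counts are of the ATF4 list. The per-library median of the list relative to controls ran from -1.26 to -0.53 in the DMSO libraries at IC20/100 and from -1.26 to -0.33 at IC5. In the medium libraries it ran from -0.76 to 0.16 at IC20/100 and from -1.18 to -0.61 at IC5. The DMSO libraries were thus low at both levels, and the medium libraries were low at IC5. By group the IC5 medians were -0.90 (chlorpyrifos), -0.71 (fluoxetine) and -0.41 (methyl mercury), against -0.89 (acrylamide) and -0.75 (valproic acid). Chlorpyrifos thus did not lie above either medium group at IC5, so the higher average was not shared by all DMSO groups on this measure. ATF5 changed from -1.57 at IC20/100 to 0.69 at IC5, a difference of -2.26 between the contrasts (adjusted p 4.37e-34, limma).

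Of 28 targets of p53, 0 were higher and 16 lower at IC5 (median -0.21), and 13 were lower at both levels. For these 13 no share of all genes is given. The contrast was lower at IC20/100 than at IC5 for 10 of the 28, among them CDKN1A (-0.55) and GDF15 (-1.57). CRABP2 and LIN28A were lower at both levels, with -1.10 and -1.07 for CRABP2 and -0.95 and -1.37 for LIN28A at IC20/100 and IC5. ADRA2A was 0.57 and 0.54 higher, and the difference between levels was 0.03 (adjusted p 0.8). By contrast DBH changed from 0.96 to -1.12 and AMH from 0.68 to -0.32. S phase genes had 12 higher and 0 lower at IC20/100 and 0 higher and 21 lower at IC5 (medians 0.15 and -0.34). The 12 were all among the 21, an overlap nearly fixed by 21 of the 23 being lower at IC5.

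**Figure D4:**
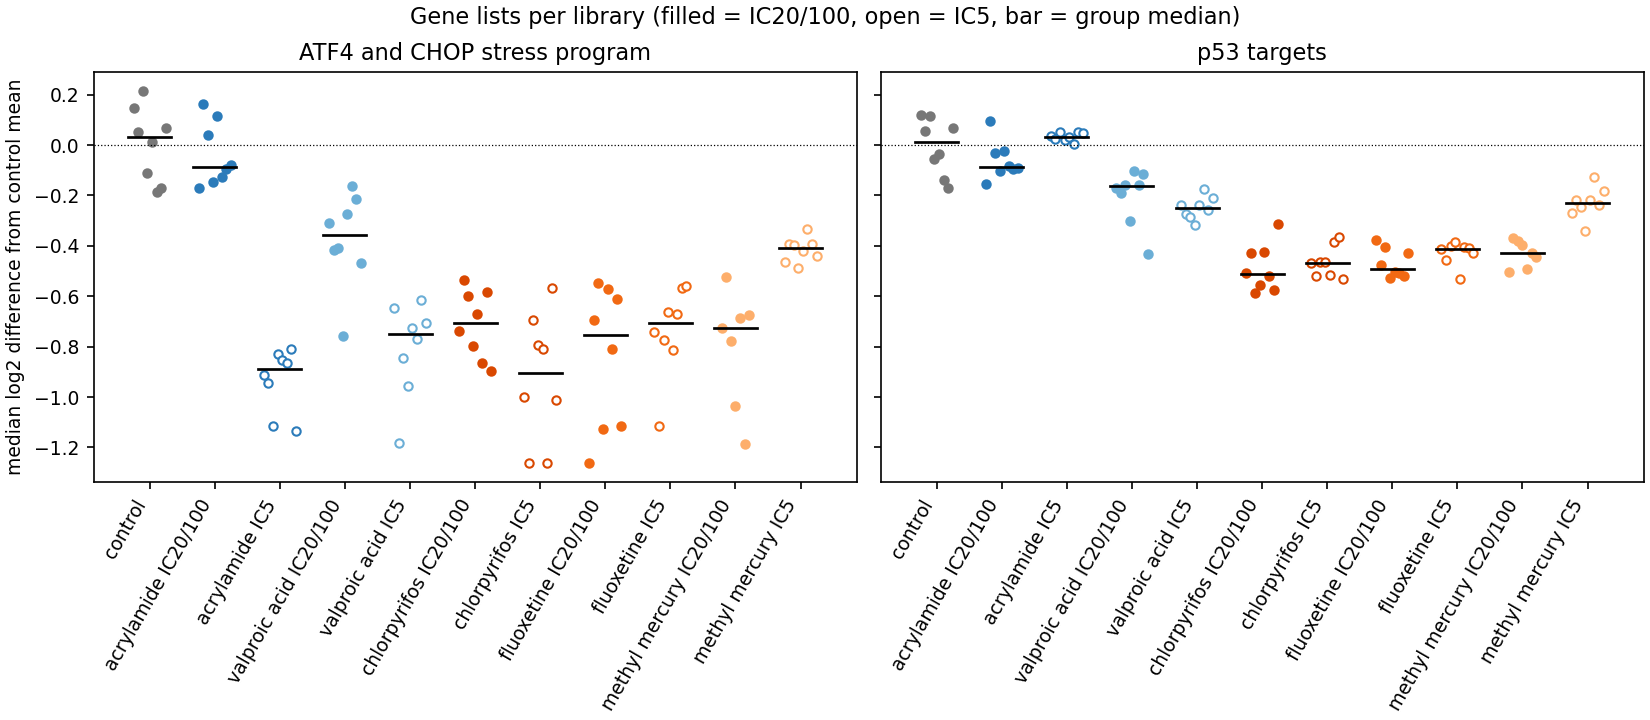
Median log2 difference from the control mean over the 23 ATF4 and CHOP genes (left) and the 28 p53 targets (right) in each library, with filled points for IC20/100, open points for IC5 and bars for group medians. For the ATF4 genes acrylamide lies near 0 at IC20/100 and at -0.89 at IC5, whereas the p53 targets stay near 0 with acrylamide at both levels.

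**Figure D5:**
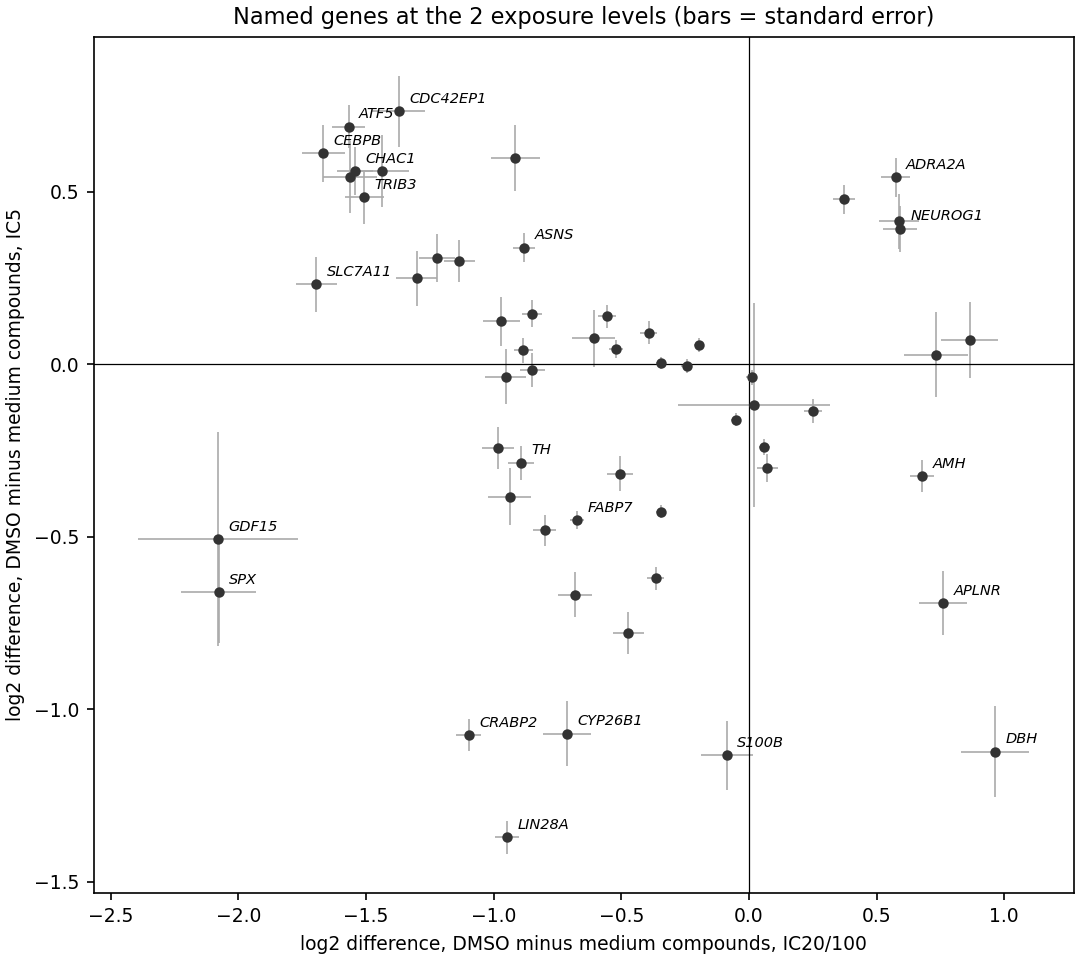
Difference between DMSO and medium compounds (log2) at IC20/100 (horizontal) and IC5 (vertical) for named genes, with standard errors, leaving out EHBP1L1, PTPN2, GRIK4 and ZBTB7B. ATF5, CEBPB, CHAC1 and TRIB3 are lower at IC20/100 and higher at IC5, and CRABP2 and LIN28A are lower at both.

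Some genes called in the average lost the call when 1 group was left out. EHBP1L1 differed by 1.49 (adjusted p 0.0262, limma), but its values ran from 46.5 to 2418 in the DMSO libraries, with group medians of 105 (chlorpyrifos), 563 (fluoxetine) and 929 (methyl mercury). Without the methyl mercury group its difference was 0.95 with an adjusted p of 0.244. PTPN2, a tyrosine phosphatase, differed by 1.33 and was no longer called without fluoxetine (0.78, adjusted p 0.282). GRIK4, a kainate receptor subunit, differed by -1.12 and was not called without chlorpyrifos, although its size hardly moved (-1.06, adjusted p 0.0753). ZBTB7B, a transcription factor, differed by -1.40 and was not called without acrylamide (-0.90, adjusted p 0.266). None of these 4 was called in all 6 pairs. Calls lost when 1 group was left out numbered 937 without chlorpyrifos, 1017 without fluoxetine, 630 without methyl mercury, 2589 without acrylamide and 851 without valproic acid.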

How the data were processed

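The deposited table holds gene counts of 96 libraries that the authors divided by 1 size factor per library, so its unit is a normalized count (a signal). Per the submitters' processing notes, Salmon 1.3.0, DESeq2 1.30.0 and the genome build GRCh38 were used, and no source used here names the annotation release. Whole reads were recovered from the steps of the deposited values (100% of values whole within 0.001 read), and a count test on them was an alternative. Genes with at least 10 normalized counts in at least 8 libraries were kept (20118 of 58434). limma 3.58.1 (R 4.3.3, trended prior) was fitted to log2(value + 2) over 87 day 10 libraries, all but methyl mercury IC20/100 replicate 8, with group and run as terms and 71 residual degrees of freedom, and was tested on simulated data. edgeR 4.0.16 and DESeq2 1.42.0 were alternatives. Libraries were not paired by replicate number: same-numbered libraries of a DMSO and a medium group had a median correlation of deviations of 0.0162 (lowest -0.112). Positions came from GENCODE 29. A call means an adjusted p under 0.05.

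The members, gene lists and tests were chosen with earlier results of these data known. Named genes were the 10 largest rises and falls among protein-coding genes called in all 6 pairs (at least 1.5-fold, mean at least 20), up to 4 called members of each list, up to 3 genes per left-out group whose call was lost, and DCX, MAP2, GFAP, S100B, NES, SOX2 and MKI67. Some are not reported here. ATF4, DDIT3 and the list members named for completeness fall outside that rule.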

Additional observations from a re-analysis of the deposited data

Results flagged for a closer look

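For 51 of 60 genes named in the text, the difference between DMSO and medium compounds at IC20/100 was itself different from that at IC5 (limma interaction, adjusted p under 0.05). The background is 31.3% of all genes tested, but most named genes were picked for their IC20/100 difference, which is part of this measure, so the count is not read against it. The values that follow are the IC20/100 difference minus the IC5 difference (log2). It was negative for CEBPB (-2.28), ATF5 (-2.26), PCK2 (-2.10), CDC42EP1 (-2.10), CHAC1 (-2.10), ADM2 (-1.998), TRIB3 (-1.99), SLC7A11 (-1.93), GDF15 (-1.57), UNC5B (-1.55), SLC7A5 (-1.53), ATF3 (-1.51), GRIK4 (-1.48), DDIT3 (-1.43), SPX (-1.42), ZBTB7B (-1.40), ASNS (-1.22), ALDH1L2 (-1.09), SHMT2 (-0.99), SESN2 (-0.92), SLC6A9 (-0.92), MTHFD2 (-0.83), EPHA2 (-0.74), AARS1 (-0.69), HERPUD1 (-0.68), TH (-0.61), YARS1 (-0.56), CDKN1A (-0.55), XBP1 (-0.48), NHLH1 (-0.35), CBS (-0.32), SOX2 (-0.25), ATF4 (-0.24), FABP7 (-0.22) and WNT7A (-0.19). It was positive for DBH (2.09), PTPN2 (2.06), APLNR (1.45), S100B (1.05), AMH (1.00), TFAP2C (0.80), INSYN2B (0.70), LIN28A (0.42), MCM3 (0.39), MKI67 (0.37), CYP26B1 (0.36), PAX6 (0.31), NES (0.30), GRIK1 (0.26), MAP2 (0.11) and NEFL (0.085).

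In 300 groups of 7 or 8 libraries, 30 single libraries lay far from the rest of their group for a named gene, where chance gives about 1 in 20 groups. In the acrylamide group these were CYP26B1 in replicate 4 (1301 normalized counts, nearest 858), EHBP1L1 in replicate 5 (1743 normalized counts, nearest 433) and PTPN2 in replicate 8 (1880.0 normalized counts, nearest 599). In the valproic acid group these were ALDH1L2 in replicate 8 (325 normalized counts, nearest 564), PTPN2 in replicate 6 (1775 normalized counts, nearest 369), ZBTB7B in replicate 1 (468 normalized counts, nearest 92.2), MKI67 in replicate 8 (5410.0 normalized counts, nearest 4277) and S100B in replicate 2 (14.3 normalized counts, nearest 21.1). In the chlorpyrifos group these were ADM2 in replicate 1 (37.2 normalized counts, nearest 27), GDF15 in replicate 7 (281 normalized counts, nearest 38), DBH in replicate 2 (48.9 normalized counts, nearest 32), PAX6 in replicate 7 (826 normalized counts, nearest 691), CRABP2 in replicate 5 (322 normalized counts, nearest 276), INSYN2B in replicate 4 (191 normalized counts, nearest 141), ZBTB7B in replicate 4 (368 normalized counts, nearest 44.9) and DCX in replicate 4 (29364 normalized counts, nearest 27117). In the fluoxetine group these were DDIT3 in replicate 3 (256 normalized counts, nearest 211), UNC5B in replicate 3 (267 normalized counts, nearest 189.5), SPX in replicate 5 (30.7 normalized counts, nearest 15.5), EHBP1L1 in replicate 3 (2235 normalized counts, nearest 864), ZBTB7B in replicate 1 (546 normalized counts, nearest 52) and GFAP in replicate 4 (116 normalized counts, nearest 32). In the methyl mercury group these were ASNS in replicate 2 (2111 normalized counts, nearest 1766), SHMT2 in replicate 2 (2310.0 normalized counts, nearest 1904), ALDH1L2 in replicate 2 (443 normalized counts, nearest 325), SLC6A9 in replicate 3 (331 normalized counts, nearest 222), NEUROG1 in replicate 2 (115 normalized counts, nearest 159), KLF9 in replicate 6 (46.8 normalized counts, nearest 34.4), PTPN2 in replicate 4 (2145 normalized counts, nearest 943) and GRIK4 in replicate 3 (1610.0 normalized counts, nearest 190.0).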

How the results depend on the processing

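Under the alternatives tried, 0 of 1316 values of named genes changed sign past the threshold; 1279 kept their side of the threshold, 35 lost it and 2 gained it. The share of higher genes among those called stayed between 44.6% and 49.6%. The cause of the shifts that follow was not tested. Genes called at least 1.5-fold numbered 323, and 164 with a pseudocount of 10, 201 with a minimum of 50 normalized counts, 195 without the acrylamide group and 543 without the valproic acid group. Without acrylamide 1693 genes were called in place of 4163 (755 higher, 938 lower), and without valproic acid 1556 genes were called in all 3 pairs left. Calls between DMSO groups (43) were 10 with methyl mercury replicate 8 included, 19 without the run term, 1 in a fit of the 39 libraries alone, 69 with edgeR and 179 with DESeq2. Calls between medium groups (553) were 297, 312 and 326 under the first 3 of these settings. Calls of the medium groups against controls (952) were 523 with methyl mercury replicate 8 and 595 without the run term. Leaving out the library farthest from each group in turn gave 11 to 54 calls between DMSO groups, 318 to 586 between medium groups and 533 to 963 for medium groups against controls.

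With the replicate number as a block beside run, 4489 genes were called, 448 in all 6 pairs and 95 between DMSO groups. Same-numbered libraries of a DMSO and a medium group had a median correlation of deviations of 0.0162. Replicate 8 had the highest mitochondrial share of its group with acrylamide (2.66%), chlorpyrifos (2.79%), fluoxetine (2.76%) and valproic acid (2.91%). Whether replicate numbers mark a shared batch was not tested. Calls were not recounted within runs, which hold 1 or 2 libraries of a group. The same direction in all 6 runs was seen for 383 of the 386 genes. These genes were chosen on the same libraries, so that count is a description and not a test.

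Depth limits genes under about 10 normalized counts, and the gap in depth over the 39 libraries (9.49 to 24.3 Mreads) was handled by the size factors and the run term alone. The technical replicates carry no spread between independent experiments.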
